A study of Mus musculus with 8 samples.

Results

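The citric acid cycle enzymes described here are 9 nuclear genes, Cs, Idh2, Idh3a, Idh3g, Ogdh, Dlst, Suclg1, Fh1 and Mdh2, taken by gene name from a table of read counts for 55421 mouse genes. They were chosen with earlier results of these data known. Bulk RNA sequencing of total RNA from mouse small intestine gave 8 libraries, 4 in each of 2 groups. The mice of both groups carried the wild-type genotype and were kept at 7% oxygen for 7 days. Hypoxia received nothing further, and Hypoxia+Nitrate also received 4 mM nitrate, which the body is known to convert by way of nitrite to nitric oxide. Strain, sex, age and the stretch of intestine were not given in the sources used here, and no group at normal oxygen was analysed. Nothing states that each library came from a separate animal, so the p-values measure the spread between these libraries, which may be technical. In bulk tissue, fewer cells of a type and less RNA per cell cannot be told apart.

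The citric acid cycle runs in the mitochondrial matrix and oxidises the acetyl group of acetyl-CoA to carbon dioxide, passing electrons to NAD+ and FAD for the respiratory chain. Citrate synthase joins acetyl-CoA to oxaloacetate, isocitrate dehydrogenase and the 2-oxoglutarate dehydrogenase complex release the carbon dioxide, and succinyl-CoA ligase, succinate dehydrogenase, fumarase and malate dehydrogenase regenerate oxaloacetate. In small intestine, enterocytes are known to feed the cycle largely from glutamine and glutamate as well as from glucose and fatty acids.

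The libraries differed in content between and within the groups. Total counts ranged from 5345377 to 21835865 in Hypoxia and from 8662279 to 63943036 in Hypoxia+Nitrate, while counts on nuclear protein-coding genes ranged from 2608226 to 3489585 and from 5004491 to 15891314. Genes for the mitochondrially encoded proteins took 64.0% and 49.3% of counts in Hypoxia+Nitrate 1 and 4, 7.31% and 6.90% in Hypoxia+Nitrate 2 and 3, and 0.423% to 1.06% in Hypoxia. Genes at the ribosomal DNA locus took 75.7%, 73.7%, 7.06% and 45.0% of counts in Hypoxia 1 to 4, against 2.33%, 22.0%, 4.95% and 3.42% in Hypoxia+Nitrate 1 to 4. A list of 8 absorptive enterocyte markers, Vil1 and Fabp2 among them, held 192 to 2754 counts per 1000000 nuclear protein-coding counts in the Hypoxia libraries against 3448 to 47343 in Hypoxia+Nitrate. All 8 had counts in every library, but their sum in Hypoxia 3 and 4 was only 1.82 and 1.53 times the level expected from background, which is defined further on. General epithelial markers (6 genes) spanned 168 to 988 against 1243 to 9091, goblet cell markers (6 genes) 206 to 824 against 863 to 2316, and Paneth cell markers (6 genes) 109 to 515 against 672 to 3020. For these 4 lists the groups did not overlap. Smooth muscle markers (6 genes, 343 to 2092 in Hypoxia and 1732 to 10354 in Hypoxia+Nitrate) overlapped, as did leukocyte (230 to 348 and 74.9 to 438), red cell (44.1 to 282 and 99.96 to 255, Alas2 at 0 in 1 library) and hepatocyte markers (258 to 939 and 130 to 475). The labels' RNA protocol names islets as the source. The 5 islet markers spanned 53.7 to 75.5 in Hypoxia against 2.31 to 59.3 in Hypoxia+Nitrate, with Ins2 and Ppy at 0 in Hypoxia+Nitrate 1, 3 and 4 and Ppy also in Hypoxia 1. The 6 pancreatic acinar markers spanned 55.2 to 78.2 against 11.8 to 40.1, with Prss2 at 0 in those same 3 libraries and in Hypoxia 4. Relative to the expected background, the acinar sum was 1.13 to 1.52 times in Hypoxia and 0.986 to 4.46 times in Hypoxia+Nitrate. The islet sum was 1.97 to 2.85 times in Hypoxia and 1.39 to 5.71 times in Hypoxia+Nitrate. On that measure the groups overlapped for both pancreatic lists, but not for smooth muscle, leukocyte, red cell and hepatocyte markers. Smooth muscle sums were 3.17 to 26.7 times in Hypoxia and 127 to 361 times in Hypoxia+Nitrate. In the same order, leukocyte sums were 1.52 to 1.998 and 4.05 to 25.6 times. Red cell sums were 1.88 to 16.7 and 24.5 to 123 times, and hepatocyte sums 4.48 to 13.9 and 16.3 to 96.2 times. These ratios also reflect the background itself, which differed between the groups. Whether pancreatic RNA was present was not tested.

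All 9 enzymes were higher in Hypoxia+Nitrate than in Hypoxia, from 4.73-fold for Fh1 to 44.6-fold for Mdh2. The comparison was fitted on 35431 genes with edgeR's quasi-likelihood test and Benjamini-Hochberg adjustment over all of them, with a threshold of 0.05. Across all genes tested 24.4% were called, 11.7% as higher and 12.7% as lower, and 18.5% of 20128 nuclear protein-coding genes were called higher. The median log2 fold change was 3.51 for the 9 enzymes, −0.58 for all genes and 0.04 for nuclear protein-coding genes. In TMM CPM (counts per 1000000 after scaling by the trimmed mean of M-values), 8 of the 9 enzymes, all but Fh1, had their 4 Hypoxia+Nitrate values above their 4 Hypoxia values, an order that 12.0% of all genes showed, while 28.8% showed the reverse. Expressed per 1000000 nuclear protein-coding counts, which leave out the mitochondrial genome and ribosomal DNA, 6 of 9 did, with Idh3a, Suclg1 and Fh1 overlapping, against 6.03% of nuclear protein-coding genes tested. The fold of the group means was smaller on that scale, at 1.59 for Fh1, 2.31 for Idh2, 2.65 for Suclg1, 2.91 for Dlst, 3.38 for Idh3a, 4.13 for Idh3g, 6.71 for Ogdh, 7.53 for Cs and 12.8 for Mdh2. The calls depended on particular libraries. Without Hypoxia 1 the same test called 1 of 9 (Idh2), and 1.95% of all genes as higher. All 9 then kept an unadjusted edgeR p under 0.05, with a median log2 fold change of 3.78. Without Hypoxia 3 or Hypoxia 4 the test called 5, and 4.16% or 4.23% of all genes as higher. Without Hypoxia+Nitrate 1 and 4 it called 6 with a median log2 fold change of 1.81, and 10.1% of all genes as higher.

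The cycle opens with citrate synthase, encoded by Cs (ENSMUSG00000005683, GRCm38 chromosome 10, 128337734 to 128362479). Cs was at 18.9, 31.4, 12.3 and 14.6 TMM CPM in Hypoxia 1 to 4 and at 844, 73.9, 69.9 and 994 in Hypoxia+Nitrate 1 to 4. The groups did not overlap, and Hypoxia+Nitrate 1 and 4 were over 10 times higher than the other two libraries of their group. The log2 fold change of Cs was 4.68 (SE 1.05, edgeR adjusted p = 0.0121).

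Isocitrate dehydrogenase exists in the matrix as an NAD-dependent enzyme, with a catalytic subunit from Idh3a and a regulatory subunit from Idh3g, and as an NADP-dependent enzyme from Idh2, which supplies NADPH. Idh3a (ENSMUSG00000032279, chromosome 9, 54586334 to 54604661) was at 11.2, 9.24, 4.32 and 4.58 TMM CPM in Hypoxia 1 to 4 and at 118, 11.3, 23.4 and 181 in Hypoxia+Nitrate 1 to 4. Its groups were separated by a narrow gap, between 11.21 in Hypoxia 1 and 11.26 in Hypoxia+Nitrate 2. The log2 fold change of Idh3a was 3.51 (SE 0.862, edgeR adjusted p = 0.0167). Idh3g (ENSMUSG00000002010, chromosome X, 73778963 to 73786897) was at 5.47, 6.33, 1.63 and 2.53 TMM CPM in Hypoxia and at 81.8, 10.5, 15.8 and 105 in Hypoxia+Nitrate, replicates 1 to 4 in each case. The groups did not overlap, and the log2 fold change of Idh3g was 3.74 (SE 0.830, edgeR adjusted p = 0.0118).

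Idh2 (ENSMUSG00000030541, chromosome 7, 80094846 to 80115392) was at 8.08, 10.4, 4.69 and 6.38 TMM CPM in Hypoxia 1 to 4 and at 45.7, 39.0, 23.6 and 56.9 in Hypoxia+Nitrate 1 to 4. Its values did not overlap between groups and, unlike those of the other members, lay within a narrow range inside Hypoxia+Nitrate. In edgeR, Idh2 rose by 2.48 on the log2 scale (SE 0.452, edgeR adjusted p = 0.00917), with the smallest standard error of the 9 enzymes.

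The 2-oxoglutarate dehydrogenase complex converts 2-oxoglutarate to succinyl-CoA. Ogdh encodes its decarboxylating E1 subunit and Dlst its lipoate-bearing E2 core. Ogdh (ENSMUSG00000020456, chromosome 11, 6291633 to 6356642) was at 16.6, 22.4, 10.3 and 9.82 TMM CPM in Hypoxia 1 to 4 and at 519, 61.3, 44.3 and 732 in Hypoxia+Nitrate 1 to 4. It followed Cs closely, with a log2 fold change of 4.52 (SE 1.00, edgeR adjusted p = 0.0117). Dlst (ENSMUSG00000004789, chromosome 12, 85110833 to 85134845) was at 15.3, 25.5, 21.03 and 25.2 TMM CPM in Hypoxia and at 260, 73.7, 42.1 and 408 in Hypoxia+Nitrate, in the same order of replicates. Its Hypoxia mean was 21.7 ± 4.75 TMM CPM (SD, n = 4), and Hypoxia 3 and 4, the lowest libraries for Cs and Ogdh, were not low for Dlst. The log2 fold change of Dlst was 3.17 (SE 0.754, edgeR adjusted p = 0.0151).

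Suclg1 encodes the alpha subunit of succinyl-CoA ligase, which makes a nucleoside triphosphate directly in the cycle. Suclg1 (ENSMUSG00000052738, chromosome 6, 73248382 to 73276911) was at 9.68, 16.0, 3.74 and 7.47 TMM CPM in Hypoxia 1 to 4 and at 91.4, 17.2, 24.0 and 179 in Hypoxia+Nitrate 1 to 4. Hypoxia 2 lay just under Hypoxia+Nitrate 2. Its log2 fold change was 3.08 (SE 0.805, edgeR adjusted p = 0.0209).

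The final hydration and oxidation are carried out by fumarase (Fh1) and malate dehydrogenase (Mdh2). Fh1 (ENSMUSG00000026526, chromosome 1, 175600374 to 175625635) was at 3.67, 7.57, 3.48 and 9.58 TMM CPM in Hypoxia 1 to 4 and at 33.7, 8.30, 12.4 and 60.6 in Hypoxia+Nitrate 1 to 4. The groups overlapped, since Hypoxia 4 exceeded Hypoxia+Nitrate 2, and the log2 fold change of 2.24 (SE 0.667, edgeR adjusted p = 0.0333) was the smallest of the 9. Its call was kept in 8 of 22 alternatives and lost with upper-quartile scaling (1.77, edgeR adjusted p = 0.0564). Mdh2 (ENSMUSG00000019179, chromosome 5, 135778480 to 135790398) was at 12.1, 29.2, 7.75 and 7.89 TMM CPM in Hypoxia and at 1006, 72.7, 59.9 and 1407 in Hypoxia+Nitrate, again in replicate order. The groups did not overlap, and the log2 fold change of 5.48 (SE 1.23, edgeR adjusted p = 0.0122) was the largest of the 9. Whether the fold changes of Fh1 and Mdh2 differ from each other was not tested in a model.

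**Figure D1:**
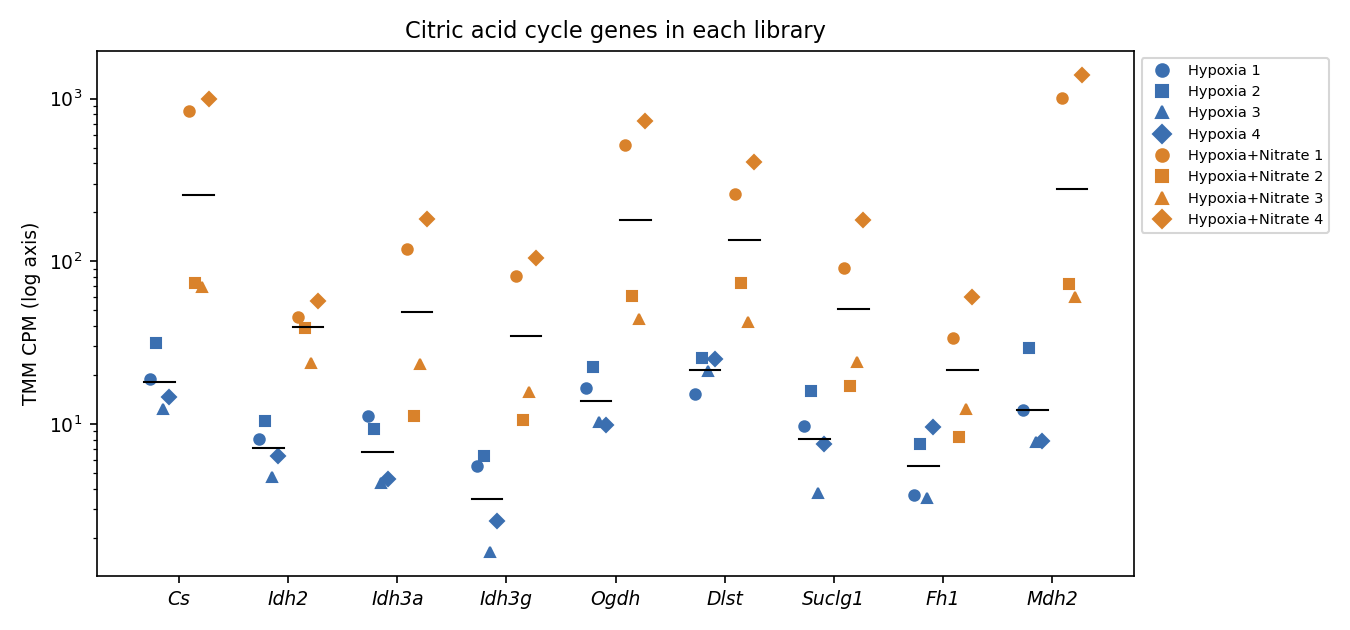
TMM CPM on a log axis for the 9 citric acid cycle genes in each of the 8 libraries; marker shape gives the replicate, colour the group, and black lines the geometric mean of each group. On this scale Hypoxia+Nitrate 1 and 4 stand above Hypoxia+Nitrate 2 and 3 for every gene, least so for Idh2, and the groups overlap for Fh1.

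The low counts in Hypoxia lay near a level seen in a set of genes, most of which gut tissue is not known to use. Among 1470 chemosensory receptor genes on autosomes (the odorant, vomeronasal and trace-amine families), 99.0% to 99.6% had a count in each Hypoxia library, against 31.2%, 82.3%, 55.5% and 41.1% in Hypoxia+Nitrate 1 to 4. Their counts per kilobase of exonic sequence, multiplied by the exonic length of a gene, gave an expected background for it, reduced by a factor of 0.5 on the X and Y chromosomes. That factor suits male mice, and sex was not given. Of the 9 enzymes only Idh3g lies on X, and without the factor its expected background would be higher. All exonic sequence of the 9 enzymes is free of other annotated genes (100% in each case), so their counts are not shared with an overlapping neighbour. The 9 enzymes together held 1514, 2173, 1314 and 1462 counts in Hypoxia 1 to 4, of which 49.5%, 22.9%, 65.2% and 48.3% would be background. In Hypoxia+Nitrate 1 to 4 they held 42231, 6469, 5794 and 84539 counts, with 0.290%, 8.10%, 8.46% and 0.233% expected as background.

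Single enzymes differed in how far they stood above that level. Of 36 values in Hypoxia (9 genes in 4 libraries), 16 were under 2 times the expected background and 5 were at or below it. Those 5 were Idh3a in Hypoxia 3 and 4 (0.781 and 0.878 times), Suclg1 in Hypoxia 3 (0.743 times) and Fh1 in Hypoxia 1 and 3 (0.895 and 0.940 times). There, expression above background was not detectable at this depth. Mdh2 reached 2.82, 9.40, 1.99 and 2.15 times background in Hypoxia 1 to 4, and Cs 2.70, 6.22, 1.96 and 2.46 times. In Hypoxia+Nitrate the lowest of 36 values was 3.08 times (Idh3a in Hypoxia+Nitrate 2) and the highest 1704 times (Mdh2 in Hypoxia+Nitrate 4).

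**Figure D2:**
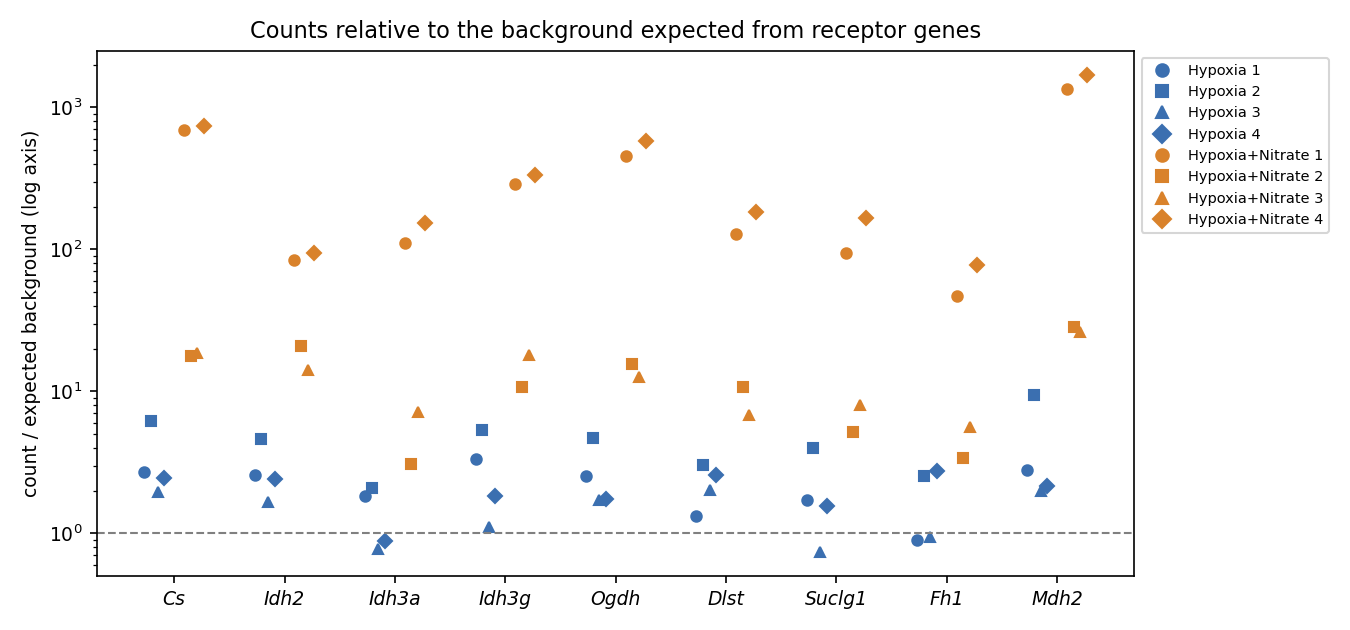
Count divided by the expected background, on a log axis, for the 9 genes in each library; the dashed line marks a count equal to background. Hypoxia values run from 0.743 to 9.40, with Idh3a, Suclg1 and Fh1 dipping below the line, and Hypoxia+Nitrate values from 3.08 to 1704.

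After the expected background was subtracted, all 9 kept their direction and none was called. In that fit, with limma-voom on 15000 nuclear protein-coding genes, 0 of 9 enzymes passed, 7 of 9 had an unadjusted p under 0.05, and 4.24% of all genes were called higher. On the same 15000 genes without subtraction, limma-voom called 8 of 9, all but Fh1, and 13.0% of all genes as higher. After subtraction Mdh2 had a log2 fold change of 3.73 (SE 1.16, limma adjusted p = 0.0612), Cs 3.01 (SE 0.930, limma adjusted p = 0.0605) and Idh2 1.81 (SE 0.633, limma adjusted p = 0.0871). For the genes nearest background the estimates became larger and less certain, with Idh3a at 5.12 (SE 1.91) and Fh1 at 4.31 (SE 1.61). With counts and library totals both taken above background, the groups did not overlap for 4 of the 9, Cs, Ogdh, Dlst and Mdh2, and for 5.60% of nuclear protein-coding genes tested in the same direction. When the background share of each library, 39.1% to 63.7% of nuclear protein-coding counts without nitrate against 2.74% to 23.2% with it, entered edgeR as a covariate, 0 of 9 enzymes and 0 of 35431 genes passed. At an unadjusted p under 0.05 that fit held 2648 genes and 0 of the 9, and their median log2 fold change was −0.13. The background share did not overlap between groups, so the 2 cannot be told apart.

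**Figure D3:**
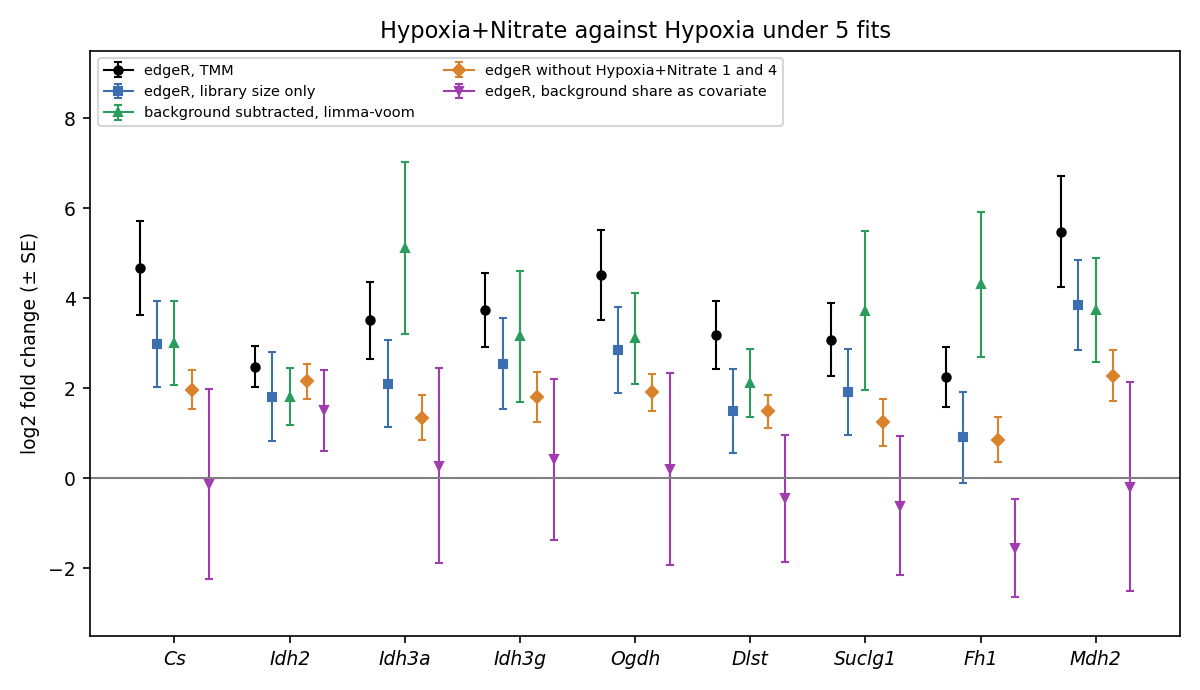
Log2 fold change with its standard error for the 9 genes in 5 fits: edgeR with TMM, edgeR with library size only, limma-voom after background subtraction, edgeR without Hypoxia+Nitrate 1 and 4, and edgeR with the background share as a covariate. All values are above 0 in the first 4 fits, and in the covariate fit they lie between −1.55 and 1.51.

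Levels per kilobase put the enzymes on one scale. In Hypoxia+Nitrate, counts per 1000000 nuclear protein-coding counts, divided by exonic length in kilobases, were 264 ± 234 for Mdh2, 131 ± 102 for Cs, 95.1 ± 72.8 for Ogdh, 34.4 ± 12.5 for Idh2, 34.3 ± 17.4 for Dlst, 32.0 ± 18.1 for Idh3g, 27.4 ± 16.6 for Suclg1, 25.9 ± 17.5 for Idh3a and 14.6 ± 6.16 for Fh1 (mean ± SD, n = 4). In Hypoxia the same measure ran from 20.6 ± 13.5 for Mdh2 and 17.4 ± 6.89 for Cs down to 7.75 ± 4.41 for Idh3g and 7.67 ± 3.93 for Idh3a (mean ± SD, n = 4). Each enzyme differed from its neighbours in these orders by less than the larger SD of the pair. The order also differed between libraries. Mdh2 was first in all 4 Hypoxia+Nitrate libraries, whereas Idh2 ranked 8, 2, 3 and 8 in Hypoxia+Nitrate 1 to 4, and Fh1 ranked 9, 8, 6 and 1 in Hypoxia 1 to 4. Background alone amounted to 4.26 to 6.95 on this scale in Hypoxia and to 0.299 to 2.53 in Hypoxia+Nitrate.

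A gene's share of the counts per kilobase of all 9 is a ratio within a library and does not depend on scaling between libraries. Mdh2 took 15.6%, 23.9%, 16.1% and 12.4% of the sum across Hypoxia 1 to 4, against 43.3%, 25.7%, 24.1% and 44.0% across Hypoxia+Nitrate 1 to 4. Cs took 14.95%, 15.9%, 15.8% and 14.1%, and then 22.4%, 16.1%, 17.3% and 19.2%. These were the 2 enzymes whose shares did not overlap between groups, both being larger in Hypoxia+Nitrate. After background subtraction the Mdh2 share was 18.8%, 27.3%, 22.5% and 12.7% in Hypoxia and 43.4%, 26.8%, 25.1% and 44.1% in Hypoxia+Nitrate, and both genes then overlapped. The Fh1 share was 4.95%, 6.50%, 7.60% and 15.7% for Hypoxia 1 to 4, against 1.52%, 3.08%, 5.21% and 1.99% for Hypoxia+Nitrate 1 to 4. Only Hypoxia 1 and Hypoxia+Nitrate 3 overlapped. After background subtraction the Fh1 share was 0%, 5.05%, 0% and 19.3% in Hypoxia and 1.49%, 2.35%, 4.66% and 1.97% in Hypoxia+Nitrate. The groups then overlapped more widely.

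Idh2 divided the Hypoxia+Nitrate libraries. It took 14.3%, 11.7%, 13.4% and 13.8% of the 9 enzymes' counts per kilobase in Hypoxia 1 to 4, but 2.71%, 18.96%, 13.0% and 2.45% in Hypoxia+Nitrate 1 to 4. The ratio of Mdh2 to Idh2 per kilobase was 16.0 and 17.97 in Hypoxia+Nitrate 1 and 4, and 1.35 and 1.85 in Hypoxia+Nitrate 2 and 3, inside the Hypoxia range of 0.898 to 2.04. Background subtraction left it at 16.2 and 18.2 against 1.37 and 1.91. Marker lists moved with this. The enterocyte list summed to 47343, 5733, 3448 and 47062 counts per 1000000 nuclear protein-coding counts in Hypoxia+Nitrate 1 to 4, and the smooth muscle list to 2053, 10354, 4962 and 1732. Their part in the Idh2 share was not tested.

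**Figure D4:**
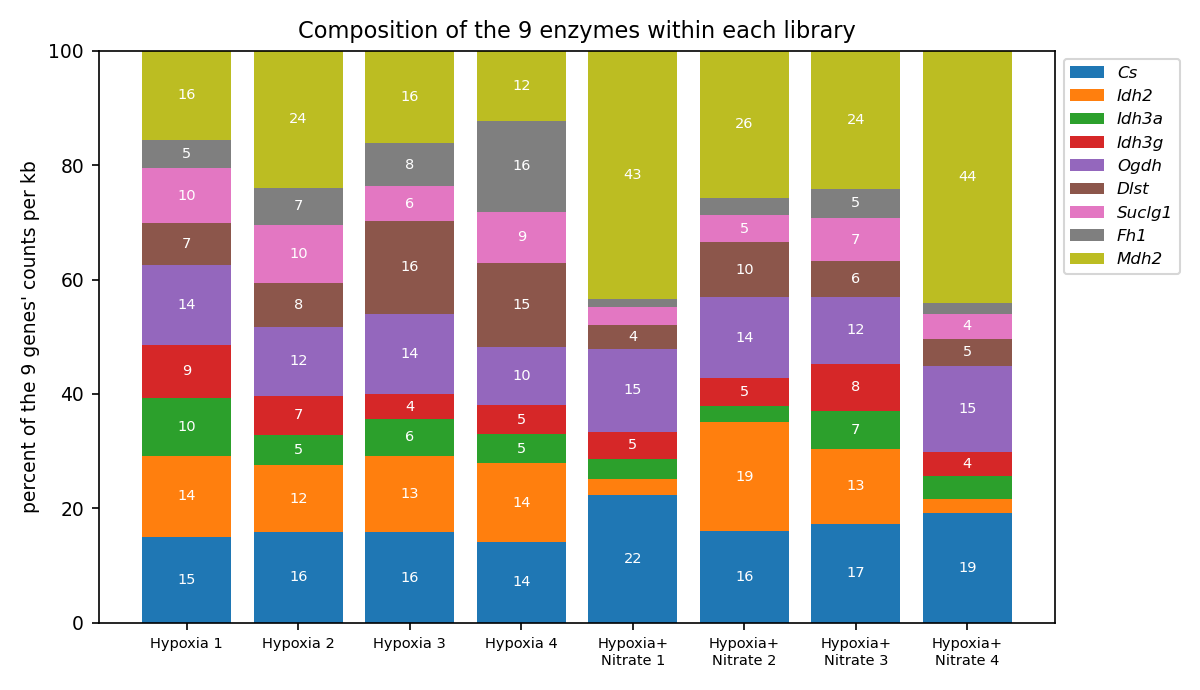
Share of each enzyme in the summed counts per kilobase of the 9, as stacked percentages for each library, rounded in the labels. Mdh2 fills 43.3% and 44.0% of the bars of Hypoxia+Nitrate 1 and 4 and at most 25.7% elsewhere, and Idh2 shrinks to 2.71% and 2.45% in those 2 libraries.

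Cytosolic enzymes that run the same reactions outside mitochondria were compared with their mitochondrial partners. Idh1, the cytosolic NADP-dependent isocitrate dehydrogenase, stood at 6.40 and 7.25 times Idh2 per kilobase in Hypoxia+Nitrate 1 and 4, at 0.783 and 1.18 times in Hypoxia+Nitrate 2 and 3, and at 0.926 to 1.89 times in Hypoxia. Mdh1, the cytosolic malate dehydrogenase of the malate-aspartate shuttle, stood at 0.402 and 0.595 times Mdh2 in Hypoxia+Nitrate 1 and 4, at 0.672 and 0.737 times in Hypoxia+Nitrate 2 and 3, and at 0.487 to 1.10 times in Hypoxia. For partner subunits, the ratio of Idh3a to Idh3g per kilobase was 0.777 to 1.41 in Hypoxia and 0.570 to 0.921 in Hypoxia+Nitrate. Idh3a was below background in Hypoxia 3 and 4, however. Above background, with the X factor of 0.5 applied to Idh3g, the ratio was 0.705, 0.497, 0 and 0 in Hypoxia 1 to 4. In Hypoxia+Nitrate 1 to 4 it was 0.767, 0.424, 0.719 and 0.918. For Ogdh over Dlst the values were 1.91, 1.54, 0.856 and 0.683 across Hypoxia 1 to 4, against 3.50, 1.46, 1.84 and 3.14 across Hypoxia+Nitrate 1 to 4, and the groups overlapped. Above background these became 4.71, 1.81, 0.715 and 0.480, against 3.52, 1.51, 1.99 and 3.15.

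Promoter sequence was examined because the 9 genes moved together. RefSeq windows on GRCm38.p6 from 250 bases before to 50 bases after the start were at hand for 8 of the 9, Idh3a being without one. Those of the 3 genes with the largest fold changes are shown up to their first annotated exon, or to the RefSeq start where no exon comes earlier, with capitals marking matches on either strand to CTCGCGAG, TGACGTCA, CCAAT and GGGCGG. The stretches are chr5:135778399-135778479 for Mdh2, chr10:128337477-128337726 for Cs and chr11:6291347-6291596 for Ogdh, all on the plus strand.
Mdh2: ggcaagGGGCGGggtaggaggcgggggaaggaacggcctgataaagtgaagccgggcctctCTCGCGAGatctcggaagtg
Cs: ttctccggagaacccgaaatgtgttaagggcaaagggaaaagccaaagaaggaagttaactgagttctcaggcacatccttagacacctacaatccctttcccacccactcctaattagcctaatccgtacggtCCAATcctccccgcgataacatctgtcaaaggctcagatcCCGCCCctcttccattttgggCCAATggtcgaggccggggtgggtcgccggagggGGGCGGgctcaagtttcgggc
Ogdh: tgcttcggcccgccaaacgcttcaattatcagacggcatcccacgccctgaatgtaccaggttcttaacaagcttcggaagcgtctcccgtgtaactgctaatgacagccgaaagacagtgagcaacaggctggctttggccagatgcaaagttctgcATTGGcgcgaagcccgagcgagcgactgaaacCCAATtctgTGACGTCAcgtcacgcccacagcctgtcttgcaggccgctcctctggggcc

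Mdh2 was the only enzyme of the 8 with CTCGCGAG. This palindrome is held by 0.966% of 27025 promoter windows (1 window a gene), and by 2.04% of 3042 windows of genes called higher. Mdh2 had 3 copies, starting 189, 62 and 28 bases before the RefSeq start, shown here with their flanks because sites b and c lie beyond the stretch above, at chr5:135778449-135778478, chr5:135778576-135778605 and chr5:135778610-135778639.
Mdh2 site a: gccgggcctctCTCGCGAGatctcggaagt
Mdh2 site b: gccgagcctgtCTCGCGAGatttggctcaa
Mdh2 site c: cttgcgcttctCTCGCGAGatcaggtggct

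The letters TGACGTCA, the full cyclic AMP response element, were found for Ogdh and Mdh2 (2 of 8, against 1.85% of all windows, and 3.48% of windows of genes called higher). GGGCGG, the core of a GC box, was found for 6 of 8 (35.9% of all windows, and 65.4% of 3042 windows of genes called higher). CCAAT was found for 4 of 8 (38.0%, and 40.5% of windows of genes called higher). CCGGAAG, an ETS-type core, was found for 2 of 8 (9.14%, and 21.1% of windows of genes called higher). The hypoxia response element cores ACGTG and GCGTG were found for 2 and 6 of 8 (19.6% and 32.5%, and 27.3% and 53.0% of windows of genes called higher). GCATGCGC, AAGGTCA and TATAAA were found in 0 of 8 (2.80%, 4.65% and 14.2% of all windows). The 8 windows were GC-rich, with a median of 60.0% GC and 22.5 CG dinucleotides, against 52.7% and 7 for all windows. These are matches of letters in a window, not binding data.

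A list of 8 further enzymes and subunits of the cycle was chosen with results known. All 8 passed upward in edgeR, with a median log2 fold change of 3.96 and a range from 2.83 for Suclg2 to 4.40 for Sdhd, and 6 of 8 had groups that did not overlap in TMM CPM. Idh3b, the remaining NAD-dependent isocitrate dehydrogenase subunit, was at 3.10 with overlapping groups. The beta subunits of succinyl-CoA ligase were at 4.30 for the ATP-forming Sucla2 and 2.83 for the GTP-forming Suclg2, whose groups overlapped. Sdha, Sdhb, Sdhc and Sdhd, the 4 subunits of succinate dehydrogenase, lay between 3.93 and 4.40. Dld, the E3 subunit that the 2-oxoglutarate and pyruvate dehydrogenase complexes share, was at 3.70 (SE 0.789, edgeR adjusted p = 0.0106).

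Neighbouring pathways were mixed. Of 7 genes for the entry of pyruvate 3 rose, 0 fell and 4 did not pass in edgeR. Pdha1, the E1 alpha subunit of pyruvate dehydrogenase, rose by 3.54 on the log2 scale and Dlat, its E2 core, by 1.72. Per 1000000 nuclear protein-coding counts Dlat averaged 53.7 ± 9.64 without nitrate and 68.0 ± 16.6 with it (SD, n = 4), with overlapping groups, and its call was lost in 10 of 22 alternatives. Of 7 kinases and phosphatases of that complex 3 rose, the kinases Pdk2 at 3.66, Pdk3 at 3.16 and Pdk4 at 3.33. The kinase Pdk1 did not pass, at 0.93, and per 1000000 nuclear protein-coding counts it pointed the other way, at 117 to 159 in Hypoxia and 77.7 to 108 in Hypoxia+Nitrate. Nor did the phosphatases Pdp1 and Pdp2 and their regulatory subunit Pdpr pass, at −0.24, 0.38 and 0.33, and all 3 means were lower in Hypoxia+Nitrate on that scale. The difference between kinases and phosphatases was not tested. All 5 cytosolic counterparts rose in edgeR, including Mdh1 by 5.06 and Idh1 by 4.38. Acly at 1.67 and Me1 at 1.72 passed narrowly (edgeR adjusted p = 0.0476 and 0.0489), with overlapping groups. Per 1000000 nuclear protein-coding counts, their folds of the group means were only 1.17 and 1.20, and the groups overlapped there too.

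Of 8 glutamate-linked and other refilling enzymes 4 rose and 0 fell. Glud1, glutamate dehydrogenase, which delivers 2-oxoglutarate to the cycle, was at 17.1, 28.2, 9.38 and 9.88 TMM CPM in Hypoxia 1 to 4 and at 1006, 45.8, 104 and 1220 in Hypoxia+Nitrate 1 to 4. It rose by 5.20 on the log2 scale (SE 1.16, edgeR adjusted p = 0.0118). Got1, the cytosolic aspartate aminotransferase, rose by 4.12. Of 5 carriers of cycle intermediates 3 rose, with the citrate carrier Slc25a1 at 4.07 and the oxoglutarate-malate carrier Slc25a11 at 3.04. For the attachment of lipoate, the cofactor of Dlst and Dlat, 1 of 4 genes rose (18.5% of nuclear protein-coding genes did), the synthase Lias by 1.51, while Mcat was at 0.61 and did not pass. The Lias call was lost in 14 of 22 alternatives, RLE scaling among them (1.27, edgeR adjusted p = 0.0519), and per 1000000 nuclear protein-coding counts Lias averaged 55.6 ± 12.8 without nitrate and 63.0 ± 11.8 with it (SD, n = 4).

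Of 6 regulators of mitochondrial gene expression 2 rose in edgeR, where 18.5% of nuclear protein-coding genes did. Esrra, the estrogen-related receptor alpha, known to drive genes of oxidative metabolism, rose by 3.76 on the log2 scale (SE 0.818, edgeR adjusted p = 0.0111), and Gabpa, an ETS factor, by 1.53 (SE 0.499, edgeR adjusted p = 0.0456). The Gabpa call was lost in 18 of 22 alternatives, RLE scaling among them (1.31, edgeR adjusted p = 0.0842), and per 1000000 nuclear protein-coding counts Gabpa averaged 42.5 ± 10.7 without nitrate and 44.3 ± 8.30 with it (SD, n = 4). Ppargc1a, Ppargc1b, Nrf1 and Tfam did not pass, at 1.21, 0.038, 0.79 and 1.32. Per 1000000 nuclear protein-coding counts their folds of the group means were 0.763, 0.529, 0.881 and 0.918, against 4.41 for Esrra. Of 5 relatives of these enzymes known from other tissues or cells 0 passed in either direction. Csl, a citrate synthase-like gene, and Mdh1b had log2 fold changes of −2.59 and −2.62. Both lay near background. Over each group, Csl counts were 1.93 times the expected background in Hypoxia and 0.689 times in Hypoxia+Nitrate, and Mdh1b counts 1.11 and 0.397 times. Csl resembles Cs in sequence, and the treatment of multi-mapping reads was not given in the sources used here.

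**Figure D5:**
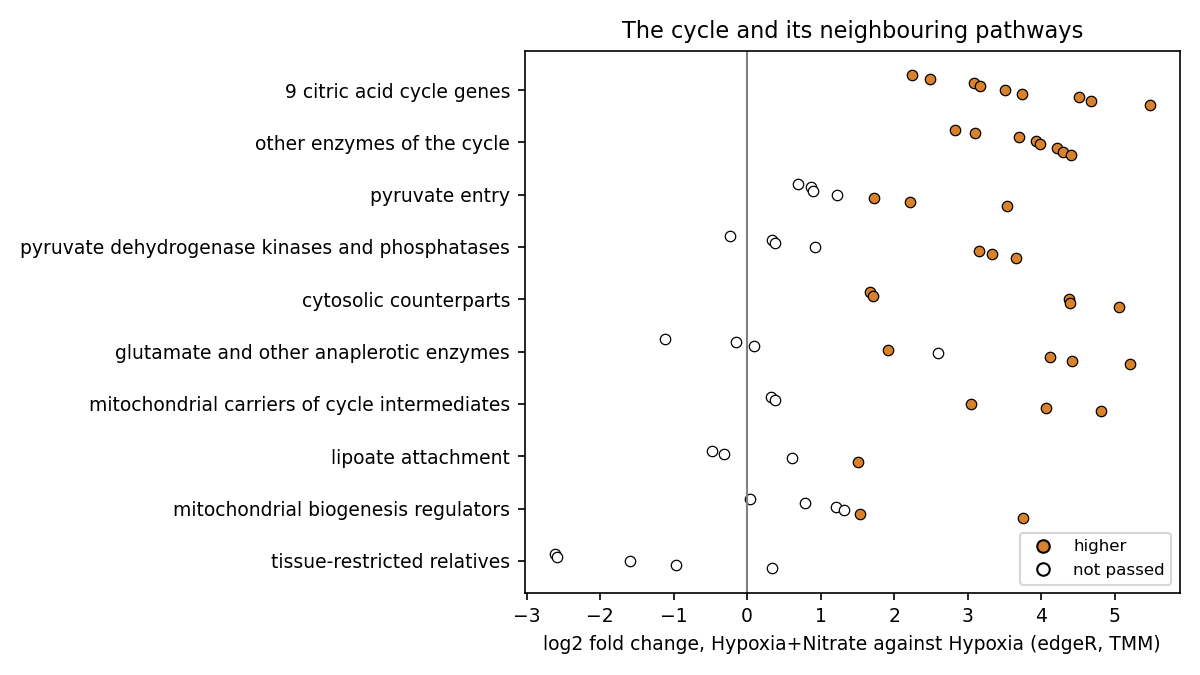
Log2 fold change of each gene (edgeR with TMM) in the 9 citric acid cycle genes and 9 neighbouring lists; filled points passed at an adjusted p of 0.05 and open points did not. All points in the first 2 lists and in the cytosolic counterparts are filled, and no point is filled among the tissue-restricted relatives.

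Among themselves the 9 enzymes followed one another across the 8 libraries. Pearson's r of log2 TMM CPM was 0.998 between Cs and Mdh2 and 0.997 between Cs and Ogdh, the closest pairs with Cs, and 0.823 between Idh2 and Fh1, the least alike of 36 pairs. After removal of the group means the r of Idh2 and Fh1 was 0.597. The 5 other genes most like the mean of the 9, among genes whose mean log2 CPM was 1 or more, were Smarce1, Prdx5, Dhrs11, Pitpna and the predicted gene Gm5940, each with r between 0.998 and 0.999 over 8 libraries. Prdx5, a peroxiredoxin, had a log2 fold change of 4.49 and Dhrs11, a short-chain dehydrogenase, 5.41. These correlations are descriptive, since all points share the same libraries, scaling factors and group difference.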

How the data were processed

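Total RNA of 8 small intestine libraries was sequenced, with group and replicate number taken from the sample titles. Per the submitters' processing notes, HISAT, featureCounts 1.5.0-p3 and DESeq 1.8.3 were used with GRCm38; the aligner version, annotation, strand setting and treatment of duplicates and multi-mapping were not given in the sources used here. Raw read counts per gene were deposited by the authors, and the 8 per-sample columns equalled the joint table. IDs were matched to GENCODE M21 (55240 of 55421).

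Tests used edgeR 4.0.16 in R 4.3.3 on genes kept by filterByExpr (minimum count 10 and total 15). TMM gave the scaling, and the 2-sided quasi-likelihood test ran over all genes. Standard errors were derived from the fold change and its F statistic. limma 3.58.1 (voom) and DESeq2 1.42.0 served as alternatives. The fit was tested on simulated data that held planted fold changes but no group difference in background or content. It therefore cannot show how the fit handles such differences. Members, lists, background estimate and tests were chosen with earlier results of these data known. Named were the 9 enzymes, 8 further enzymes of the cycle, from each further list the 2 genes with the lowest p, and the 5 genes most like the members. Pdk1, Pdk4, Pdp1, Pdp2, Pdpr, Acly, Me1, Ppargc1a, Ppargc1b, Nrf1 and Tfam were named after their values were seen. The promoter motifs were chosen after seeing the data. Counts of 31 to 432 per enzyme in Hypoxia limit precision. No library duplicated another. Some results are not reported here.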

Additional observations from a re-analysis of the deposited data

Results flagged for a closer look

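Of 94 sets of 4 values checked (named genes and shares, each group apart), 2 held a library far from its 3 fellows, where chance alone flags about 1 in 20 sets. Mdh1b was at 1.25 TMM CPM in Hypoxia+Nitrate 2 and had no count in the other Hypoxia+Nitrate libraries. Idh3g took 8.37% of the 9 enzymes' counts per kilobase in Hypoxia+Nitrate 3, against 4.32% to 4.90% in the others of that group.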

How the results depend on the processing

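Over 22 alternatives, 1 of them chosen after seeing the data, the count of enzymes called, 9 in the main test, stayed at 6 to 9 in 14. It was 1 with library size only (Mdh2), 4 with the replicate block, 1 without Hypoxia 1 and 2 (Idh2), 0 after background subtraction and 0 with the background covariate. Leaving out 1 library gave 1 to 9. The count of all genes called, 8653 in the main test, was 1800 with library size only, 16708 without a filter, 14689 in DESeq2, 15818 in limma-voom, 4791 with the replicate block, 4227 without Hypoxia 1 and 2, 2006 after background subtraction, 5267 on the genes of that fit without subtraction (the added alternative) and 0 with the covariate, and 1932 to 22454 when 1 library was left out. The cause of these changes was not tested. The deviations of same-numbered libraries correlated at 0.05, −0.18, 0.18 and −0.05 for numbers 1 to 4. The labels do not say whether equal numbers share an animal or batch. Correlations over all genes cannot decide it, since the libraries also differ in background and content.

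Higher genes made up 48.1% of calls in the main test, 35.0% under RLE scaling, 34.4% when scaled by the upper quartile and 13.5% by library size alone, and the median of all genes was −0.58, −0.87, −0.94 and −1.07. Relative to it the enzymes' median was 4.09, 4.13, 3.96 and 3.17 higher, and all 9 were above 0 in each scaling. Signs turned almost only with the covariate: Cs −0.13, Dlst −0.45, Suclg1 −0.61, Fh1 −1.55, Mdh2 −0.19, Idh3b −0.51, Sucla2 −0.42, Suclg2 −1.61, Sdha −0.16, Pdk2 −0.094, Idh1 −0.59, Got1 −1.12, Slc25a1 −0.98, Lias −0.19, Mcat −0.95, Esrra −0.061, Gabpa −0.080, Smarce1 −0.028, Dhrs11 −0.55, Gm5940 −0.24 and Mdh1b 1.66. Mcat was also at −0.63 with library size only, −0.37 without Hypoxia+Nitrate 1 and 4, −1.30 after background subtraction and −0.30 on the same genes without it. For shares, the difference of group means turned for Idh3a after subtraction (0.91 percentage points) and, for Idh3g, ranged from −1.83 to 0.045 when 1 library was left out, turning without Hypoxia 1.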
